A study of Arabidopsis thaliana with 6 samples.

Results

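Beta-glucosidases of glycoside hydrolase family 1 (the BGLU family) cut glucose off small plant metabolites. Plants store many defence compounds, lignin precursors and coumarins as inactive glucosides, and a beta-glucosidase releases the active aglycone when it meets its substrate, often after the cell is damaged or when a root secretes the product. Members of the family in Arabidopsis differ in substrate and are commonly kept apart from it, in the wall, the vacuole or the ER body. The 7 genes described here are BGLU15, BGLU24, BGLU27, BGLU28, BGLU31, BGLU42 and BGLU46. They came from a list of beta-glucosidases selected on a mean log2 intensity above about 6 over all arrays, so their levels are given as a description. The list was drawn up with earlier results of these data known, and it leaves out 6 family genes that pass the same limit, so the counts and the median over the 7 are descriptions too. BGLU31, BGLU15 and BGLU24 exceeded 6 in the mean of 1 group and not in that of the other.

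The RNA came from Arabidopsis root protoplasts that carried a plasmid encoding the nitrate-regulated transcription factor HRS1 (AtNIGT1), driven by the CaMV35S promoter and fused to the glucocorticoid receptor. Such a fusion stays outside the nucleus until dexamethasone (DEX) is added. The +DEX group (3 samples) received 10 µM DEX, and the −DEX group (3 samples) received none. Both groups had been kept in nitrate and were given 35 µM cycloheximide, which blocks translation, and in both the transfected cells were sorted by red fluorescence. Each sample was measured on 1 ATH1 array, a 3′-biased Affymetrix array. The overexpression is transient and from a strong constitutive promoter, arrays of DEX-treated protoplasts without HRS1 were not analysed here, and nothing in the labels says that replicates were separate cultures, so the p-values measure only how far these samples vary, and that variation may be technical.

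The 7 genes are part of 47 family loci, of which 22 had a probe set whose annotation names 1 gene. All 7 were found, with 1 probe set each, among 22746 probe sets tested. The level limit alone would have taken 6 more genes of the family, namely BGLU16, PYK10 (BGLU23), BGLU25, BGLU32, BGLU33 and BGLU45, and these are used below for comparison. BGLU31 lay just inside the limit, with a mean log2 intensity of 6.01 over the 6 arrays. The genes nearest to the limit from below were BGLU44 and BGLU29, both with a mean of 4.38. No gene of the family had a mean between these values.

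All levels are log2 intensities after scaling the arrays to the same median, and the level of one probe set cannot be set against that of another. Background was read on each array from 27 control probe sets for Bacillus RNA, whose 95th percentile was 5.54, 5.07 and 5.72 on the +DEX arrays, against 6.23, 6.59 and 5.35 on the −DEX arrays. By that measure BGLU27, BGLU28, BGLU42 and BGLU46 were above background on all 6 arrays, and BGLU15, BGLU24 and BGLU31 on 4 of 6 each. The percentile was higher on −DEX replicates 1 and 2 than on any +DEX array. Counts of arrays above it can therefore differ between the groups where the levels do not, and they are no measure of change with DEX. The array of −DEX replicate 1 stood apart. Its mean Spearman correlation with the other arrays was 0.708, against 0.777 to 0.822 for the rest, and the ratio of 3′ to 5′ signal of a ubiquitin control was 18.6 on it against 5.45 to 8.85 on the rest. Of the tissue markers, the root hair gene EXPA7 and the cortex gene CO2 lay under the percentile on all arrays. No stele or root cap marker has a probe set named for it alone in the annotation used here. The few markers that could be read thus did not show the labelled root origin. Outside the marker list, PYK10 and the probe set shared by BGLU21 and BGLU22, described below with roots, were above the percentile on all 6 arrays. RCA, the Rubisco activase of leaves, had 4.97 to 6.12 with DEX and 5.01 to 6.29 without, above the percentile on 2 of 3 +DEX and 1 of 3 −DEX arrays.

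None of the 7 genes passed the test for a change with DEX. BGLU15, BGLU24, BGLU28, BGLU42 and BGLU46 had lower means on the +DEX arrays, and BGLU27 and BGLU31 had higher means, but limma called 0 of 7 at an adjusted p under 0.05, with adjusted p-values from 0.80 to 0.90. Over all probe sets limma called 27 lower with DEX (0.119%) and 0 higher (0%). At an unadjusted p under 0.05 there were again 0 of 7, where 6.6% of all probe sets lay. A negative difference was seen in 5 of 7, against 53.9% of all probe sets. The median difference of the 7 was −0.58, which is the value of BGLU42, beside −0.10 over all probe sets. BGLU42 was the single gene of the 7 whose groups did not overlap. Among all probe sets 7.55% were lower and 4.99% were higher without overlap. In sorted protoplasts, fewer cells of a type that makes a transcript and less of it per cell cannot be told apart.

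**Figure D1:**
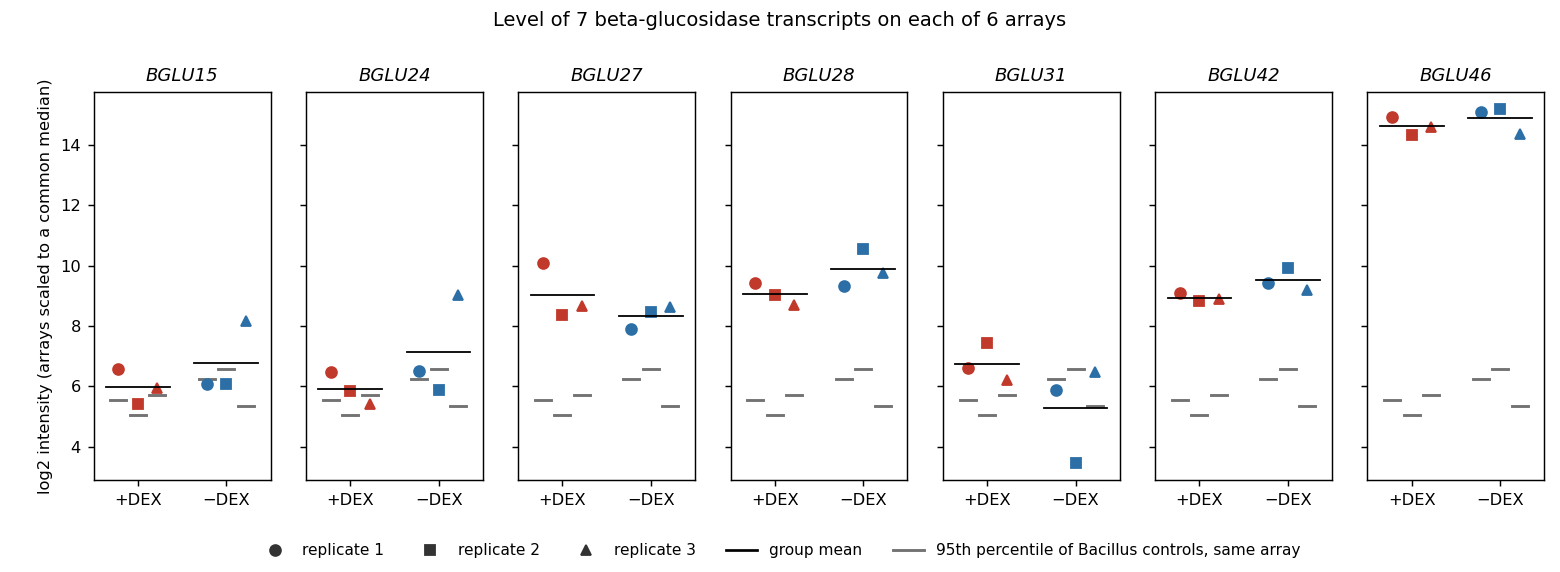
Level of each of the 7 genes as log2 intensity (vertical axis) in the +DEX and −DEX groups, with 1 point per array, the symbol giving the replicate number. Black lines are group means of 3 arrays and grey ticks mark the 95th percentile of Bacillus controls on the same array. BGLU46 lies 8.60 to 9.38 above its ticks, BGLU42 is the gene whose groups do not overlap, and BGLU15, BGLU24 and BGLU31 sit near background with 1 deviating −DEX array each.

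The enzymes of lignin precursors were read first. BGLU46 (AT1G61820) is known to hydrolyse glucosides of monolignols, the alcohols from which lignin is built. The intensities as deposited were 30707, 23949 and 26299 on the +DEX arrays, against 31533, 30873 and 23052 on the −DEX arrays. On the log2 scale these were 14.92, 14.33 and 14.59 with DEX, against 15.10, 15.18 and 14.36 without. The groups overlapped: the lowest −DEX array, replicate 3, lay below 2 of 3 +DEX arrays. The means were 14.62 ± 0.30 with DEX and 14.88 ± 0.45 without (SD, n = 3 each). The difference was −0.26 ± 0.31 (SE; limma adjusted p = 0.88), and its sign turned to 0.053 after quantile normalization. The 95% interval of the fit ran from 1.91-fold lower to 1.32-fold higher with DEX, the narrowest of the 7.

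BGLU45, the gene next to BGLU46 in the gene table and known for the same class of substrate, was not on the list of 7. It had 8.22, 7.54 and 8.78 on the +DEX arrays, against 6.34, 8.83 and 8.98 on the −DEX arrays. Its lowest array was −DEX replicate 1, the one that stood apart. The difference was 0.13 ± 0.82 (SE; limma adjusted p = 0.98). Pathway genes were read only where a probe set was annotated with that gene alone, and the rest of each list may lie on probe sets not named here. Of 24 loci for the monolignol pathway and its glucosyltransferases, 5 had such a probe set, and 0 were called in either direction. The median over these 5 was −0.66, with 2 of the 5 above the Bacillus percentile on all 6 arrays. Those 2 were CCR2, with a difference of −0.065 ± 0.40, and UGT72E2, with −0.66 ± 0.81 (SE). The glucosyltransferase UGT72E3 differed by −1.64 ± 1.44 and its relative UGT72E1 by 1.53 ± 1.40 (SE), both of them dim. UGT72E3 was above the Bacillus percentile on 0 of 3 arrays with DEX and 2 of 3 without, and UGT72E1 on 1 of 3 with DEX and 0 of 3 without.

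BGLU42 (AT5G36890) is known in roots for releasing the coumarin scopoletin from its glucoside scopolin, in the iron deficiency response and in the response to beneficial root microbes. The log2 values were 9.08, 8.85 and 8.89 on the +DEX arrays, against 9.42, 9.91 and 9.21 on the −DEX arrays. All 3 +DEX values were below all 3 −DEX values, by a gap of 0.13 between the nearest ones. The means were 8.94 ± 0.13 with DEX and 9.51 ± 0.36 without (SD, n = 3 each). The difference of −0.58 ± 0.55 did not pass the test (SE; limma adjusted p = 0.86). The interval ran from 3.39-fold lower to 1.53-fold higher. As deposited, with no further scaling, the difference was −0.38, and without −DEX replicate 2, the highest array, also −0.38.

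For iron deficiency and coumarin secretion, 6 of 22 loci had a probe set named for them alone, and 0 were called in either direction. The median difference of the 6 was 0.60, but only 1 of them was above the Bacillus percentile on all 6 arrays, and 2 were on none. The 1 above it, the hydroxylase gene F6′H1, differed by 0.18 ± 0.71 (SE; limma adjusted p = 0.98). COSY, a coumarin synthase, had 8.39, 8.46 and 7.83 with DEX and 5.91, 6.37 and 7.27 without, with no overlap between the groups. It was above the Bacillus percentile on 3 of 3 +DEX and 1 of 3 −DEX arrays. The difference of 1.71 ± 0.80 missed the threshold (SE; limma adjusted p = 0.75). F6′H2, a hydroxylase that makes the precursor of scopoletin, differed by 2.24 ± 1.22 (SE; limma adjusted p = 0.77), and was above that percentile on 3 of 3 +DEX and 1 of 3 −DEX arrays. BGLU21 and BGLU22, which are also known to cleave scopolin in roots, share a probe set and cannot be separated. That probe set had 12.46, 12.57 and 12.72 on the +DEX arrays, against 12.41, 12.94 and 13.13 on the −DEX arrays, a difference of −0.25 ± 0.35 (SE; limma adjusted p = 0.92).

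BGLU28 (AT2G44460) is known as a marker of sulphur deficiency and as an enzyme that breaks down glucosinolates, the sulphur-rich defence compounds of the cabbage family, when sulphur is short. It had 9.44, 9.03 and 8.68 on the +DEX arrays, against 9.33, 10.56 and 9.75 on the −DEX arrays. The groups overlapped through 1 pair of arrays, since +DEX replicate 1 lay above −DEX replicate 1. The means were 9.05 ± 0.38 with DEX and 9.88 ± 0.63 without (SD, n = 3 each). The difference was −0.83 ± 0.57, and BGLU28 had the smallest p of the 7 (SE; limma adjusted p = 0.80). The interval ran from 4.12-fold lower to 1.31-fold higher. Without −DEX replicate 2, the highest array, the difference was −0.49, and without −DEX replicate 1 it was −1.10.

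Of 19 loci of the sulphur deficiency response, 1 had a probe set named for it alone, and 0 were called. This was SDI2, of a small family of proteins induced by sulphur deficiency. It had 11.78, 12.11 and 11.85 on the +DEX arrays, against 13.48, 13.18 and 12.36 on the −DEX arrays. The groups did not overlap, and the difference of −1.09 ± 0.39 missed the threshold (SE; limma adjusted p = 0.74).

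BGLU15 (AT2G44450), which lies next to BGLU28, is known to cleave flavonol glycosides that carry a glucose and a rhamnose. It had 6.59, 5.42 and 5.96 on the +DEX arrays, against 6.07, 6.09 and 8.17 on the −DEX arrays. A single array, −DEX replicate 3, stood far above the others, and the remaining 5 lay within 1.17 of each other. On the deposited scale that array gave 316, and the other −DEX arrays gave 60.5 and 56.3. The difference was −0.79 ± 1.02 (SE; limma adjusted p = 0.90), with an interval from 7.87-fold lower to 2.63-fold higher. Without −DEX replicate 3 it was −0.093. BGLU15 was above the Bacillus percentile on 3 of 3 +DEX and 1 of 3 −DEX arrays. These counts follow the percentile of each array: 5.42 on +DEX replicate 2 lay above it, and 6.07 and 6.09 on −DEX replicates 1 and 2 lay below. The interval thus rests in part on values under background and bounds intensities, not expression.

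The flavonol pathway had 4 of 14 loci with such a probe set and 0 called, with a median of −0.82. Of these 4, 1 was above the Bacillus percentile on all 6 arrays and 1 on none. UGT78D3, which adds arabinose to flavonols, had 3.76, 6.33 and 4.66 with DEX and 6.68, 6.40 and 7.01 without. The groups did not overlap, but the gene was dim, with 1 of 3 +DEX and 2 of 3 −DEX arrays above the percentile. The difference was −1.78 ± 1.11 (SE; limma adjusted p = 0.79). UGT89C1, which adds rhamnose to flavonols, differed by −1.41 ± 1.39 (SE; limma adjusted p = 0.86), and its +DEX arrays alone spread over 9.07, 2.57 and 7.17.

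BGLU24, BGLU27 and BGLU31 are grouped by sequence, with BGLU28, among relatives of PYK10 and PEN2, enzymes known to act as atypical myrosinases on glucosinolates. Their own substrates are less well described. BGLU27 (AT3G60120) had 10.11, 8.35 and 8.68 on the +DEX arrays, against 7.92, 8.47 and 8.62 on the −DEX arrays. The +DEX mean was carried by replicate 1. The means were 9.05 ± 0.93 with DEX and 8.34 ± 0.37 without (SD, n = 3 each), and the difference was 0.71 ± 0.67 (SE; limma adjusted p = 0.85). Without +DEX replicate 1 it was 0.18. Its interval ran from 1.65-fold lower to 4.41-fold higher.

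BGLU24 (AT5G28510) had 6.47, 5.84 and 5.42 on the +DEX arrays, against 6.51, 5.89 and 9.01 on the −DEX arrays. As for BGLU15, the array of −DEX replicate 3 was high and the other 5 were close together, between 5.42 and 6.51. On the deposited scale it gave 567 on that array and 45.6 to 87.9 on the others. The difference was −1.22 ± 1.05 (SE; limma adjusted p = 0.84), and −0.29 without −DEX replicate 3. BGLU24 was above the Bacillus percentile on 2 of 3 arrays in each group. The interval ran from 11.2-fold lower to 2.04-fold higher, and it too rests in part on values under the percentile.

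BGLU31 (AT5G24540) had 6.61, 7.42 and 6.21 on the +DEX arrays, against 5.90, 3.47 and 6.47 on the −DEX arrays. The groups overlapped, since −DEX replicate 3 lay above +DEX replicate 3, and the lowest array was −DEX replicate 2. It was above the Bacillus percentile on 3 of 3 +DEX and 1 of 3 −DEX arrays. The means were 6.75 ± 0.62 with DEX and 5.28 ± 1.59 without (SD, n = 3 each). BGLU31 had the largest positive difference of the 7, 1.47 ± 1.13 (SE; limma adjusted p = 0.82). With a floor at a log2 of 5 the difference was 0.96, and 0.56 without −DEX replicate 2. The interval ran from 1.93-fold lower to 14.8-fold higher. It rests in part on values under the percentile, so it bounds intensities, not expression.

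The ER body, a compartment of root and seedling cells packed with PYK10, was read through the 4 loci, of 22, with such a probe set in the list for ER bodies and glucosinolate breakdown, of which 0 were called. The median of the 4 was −0.64, with 2 of them above the Bacillus percentile on all 6 arrays and 1 on none. NAI2, a protein needed to form ER bodies, had 10.66, 11.03 and 10.95 with DEX and 13.10, 11.13 and 11.30 without. Its groups did not overlap, but the gap rested on a distance of 0.10 between the nearest arrays, and −DEX replicate 1, the array that stood apart, was the highest. The difference was −0.96 ± 0.52 (SE; limma adjusted p = 0.77). JAL22, a jacalin-related lectin, differed by −2.27 ± 1.30 (SE; limma adjusted p = 0.77), and was above the Bacillus percentile on 1 of 3 +DEX and 2 of 3 −DEX arrays. PYK10 itself had 12.47, 11.37 and 10.77 on the +DEX arrays, against 9.08, 11.82 and 11.24 on the −DEX arrays, a difference of 0.82 ± 0.66 (SE; limma adjusted p = 0.82), with −DEX replicate 1 the lowest.

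**Figure D2:**
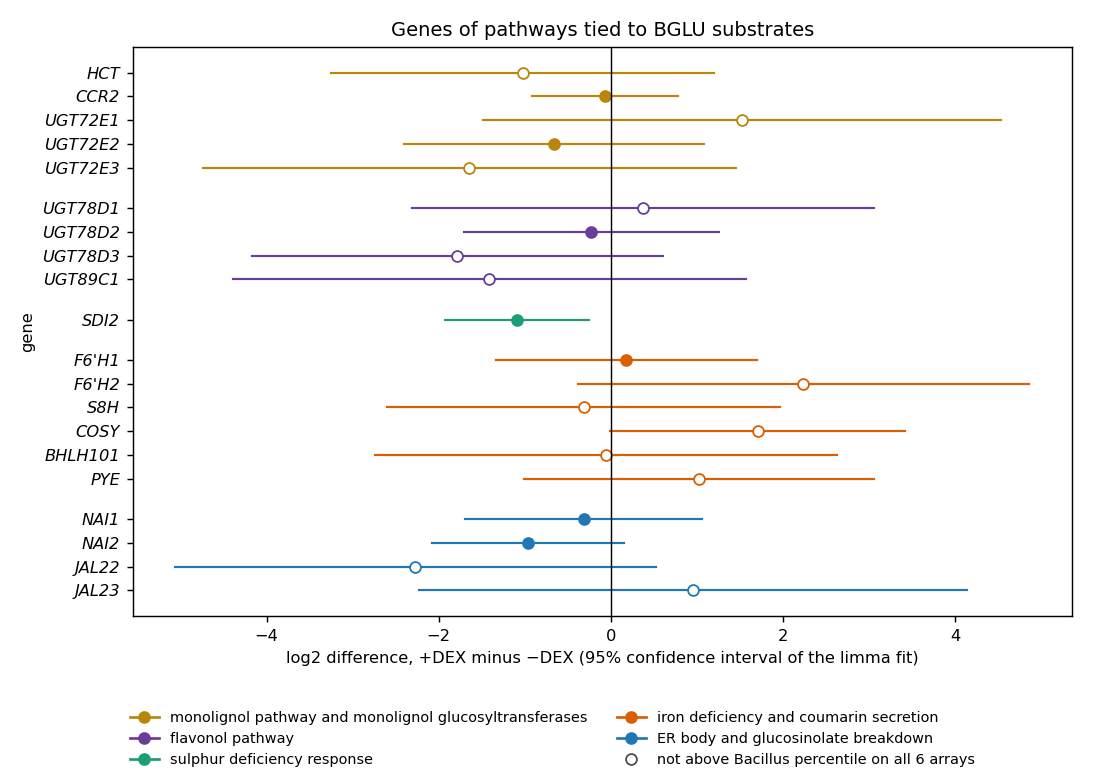
Log2 difference, +DEX minus −DEX (horizontal axis), with the 95% interval of the limma fit, for the genes of the 5 pathway lists that have a probe set of their own (vertical axis). Open symbols are genes that were not above the Bacillus percentile on all 6 arrays. The intervals of all genes but SDI2 cross 0, and none passed the threshold after adjustment.

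The other 15 genes of the family with a probe set of their own were compared with the 7. Limma called 0 of the 15 in either direction, the smallest adjusted p being 0.29, for BGLU41. The 6 genes above the level limit that were not on the list had a median difference of 0.22, with 5 positive and 1 negative and 0 without overlap, beside −0.58 for the 7. The difference between these medians was not tested, and the median of the 6 was not recomputed with single arrays left out. In BGLU16, PYK10 and BGLU45 the lowest −DEX array was replicate 1, the array that stood apart. In BGLU25 and BGLU32 it was replicate 3, and in BGLU33 replicate 1 was the highest −DEX array. BGLU16 had 9.77, 9.70 and 9.84 on the +DEX arrays, against 9.18, 10.27 and 9.31 on the −DEX arrays (difference 0.19 ± 0.54, SE). BGLU25 had 12.54, 12.36 and 12.34 with DEX and 12.17, 12.82 and 11.48 without (difference 0.26 ± 0.41, SE). In both, the −DEX arrays reached above and below all +DEX arrays. BGLU32 and BGLU33 differed by 0.40 ± 1.11 and −0.47 ± 1.12 (SE) and were near background.

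Of the 9 genes below the limit, 3 had all +DEX values below all −DEX values. They were BGLU19, BGLU40 and BGLU41. BGLU41 was at 0.29, 0.00 and 0.00 on the +DEX arrays and at 4.71, 5.80 and 3.97 on the −DEX arrays. BGLU41 and BGLU19 lay under the Bacillus percentile on all 6 arrays, and BGLU40 on all but −DEX replicate 3, so these differences lie in the background range and no ratio is given. BGLU44, a relative known to prefer mannosides, was above the percentile on 2 of 3 +DEX and 0 of 3 −DEX arrays, with means of 5.51 ± 1.35 and 3.24 ± 2.72 (SD, n = 3 each), and overlapped between the groups. Counted over the whole family of 22, 4 were lower without overlap and 0 higher, against the 7.55% and 4.99% of all probe sets, and 3 of the 4 were the dim genes just named.

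**Figure D3:**
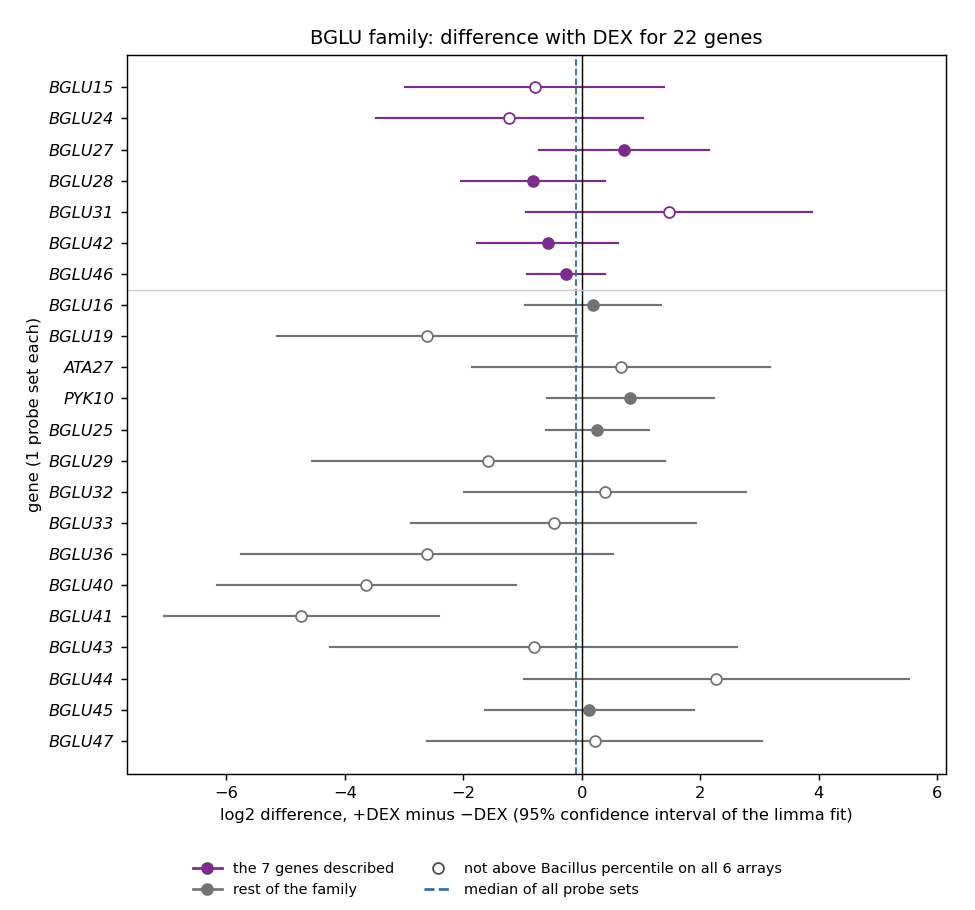
Log2 difference, +DEX minus −DEX (horizontal axis), with the 95% interval of the limma fit, for 22 genes of the BGLU family (vertical axis), the 7 genes described in the upper block. Open symbols mark genes not above the Bacillus percentile on all 6 arrays and the dashed line is the median of all probe sets, −0.10. The intervals of the 7 all cross 0, and the lowest values belong to the dim genes BGLU40 and BGLU41. The intervals of these and of BGLU19, also dim, lie below 0, but none of them was called after adjustment.

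Several family genes stand side by side in the gene table of TAIR10.1. BGLU15, BGLU28 and BGLU29 follow one another, with differences of −0.79, −0.83 and −1.58. BGLU29 was above the Bacillus percentile on 0 of 3 +DEX and 1 of 3 −DEX arrays. BGLU27 and its neighbour BGLU16 differed by 0.71 and 0.19, and BGLU31 and its neighbour BGLU32 by 1.47 and 0.40. BGLU45 and BGLU46 differed by 0.13 and −0.26, and BGLU43 and BGLU44 by −0.81 and 2.27. None of these genes was called. BGLU43 was above the Bacillus percentile on 1 of 3 arrays with DEX and 0 of 3 without. BGLU29, BGLU43 and BGLU44 are too dim for the sign of their difference to be read. BGLU15 and BGLU31 were above the percentile on 4 of 6 arrays each, and BGLU32 on 2 of 3 in each group, so their signs are uncertain too.

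Several of the differences depended on single arrays. The SD over the −DEX arrays exceeded that over the +DEX arrays in 6 of 7 genes, BGLU27 being the exception. The share over all probe sets was not computed, and the −DEX group holds the array that stood apart. The variance model, the filter on dim probe sets and the replicate block leave the size of a difference as it is, by construction. In the other 10 settings the sign stayed the same for 6 genes, and for BGLU46 it did so in 9. Part of this was fixed too. The floor at a log2 of 5 left every gene but BGLU31 unchanged, because the rest had no value under it. The values as deposited shifted all 7 genes by the same amount, which was too small to turn any sign. Leaving out single arrays moved BGLU15 between −1.14 and −0.093, BGLU24 between −1.85 and −0.29, BGLU27 between 0.18 and 1.06, BGLU31 between 0.56 and 2.07, BGLU28 between −1.10 and −0.49, BGLU42 between −0.73 and −0.38, and BGLU46 between −0.53 and −0.11. The ends nearest to 0 came without −DEX replicate 3 for BGLU15 and BGLU24, without +DEX replicate 1 for BGLU27 and without −DEX replicate 2 for the other 4.

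**Figure D4:**
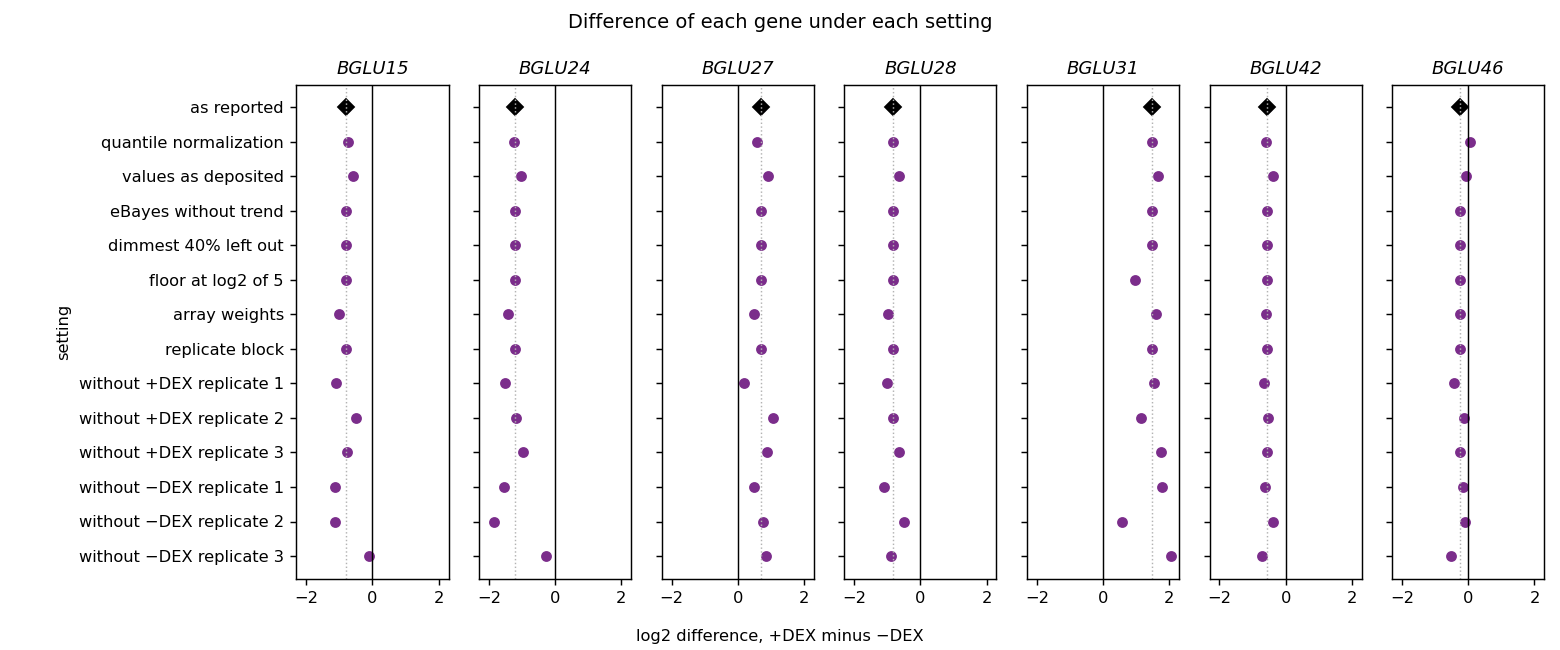
Log2 difference, +DEX minus −DEX (horizontal axis), of each of the 7 genes under each of 14 settings (vertical axis), with the reported value as a black diamond and a dotted line. BGLU15 and BGLU24 move towards 0 without −DEX replicate 3, BGLU27 without +DEX replicate 1 and BGLU31 without −DEX replicate 2, and BGLU46 crosses 0 after quantile normalization.

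For the 4 genes above background on all arrays, the named gene with the most similar course over the 6 arrays was picked among 3969 candidates. These were AT4G14500 for BGLU27 (Pearson r = 0.989), AT4G31790 for BGLU28 (r = 0.990), AT2G04520 for BGLU42 (r = 0.992) and XPO1B, a nuclear export receptor, for BGLU46 (r = 0.990). XPO1B had 11.57, 11.13 and 11.37 on the +DEX arrays, against 11.73, 11.70 and 11.11 on the −DEX arrays, so that −DEX replicate 3 was low for both genes. AT2G04520 had 11.27, 10.89 and 11.13 with DEX and 11.72, 12.60 and 11.52 without, with −DEX replicate 2 highest as for BGLU42. Each r rests on 6 points that share their array and its scaling and is the highest of many, and is given as a description.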

How the data were processed

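The authors' deposited table was the source of all values and holds 1 linear intensity per probe set and array. Per the labels, TRIzol was used to extract RNA and a 3′ IVT kit to label it; how probes were summarised is not stated there. On each array the 2% trimmed mean of the deposited intensities was 500, but their medians ran from 66.3 to 92.9.

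The arrays were therefore scaled to the same median over 22746 probe sets (64 controls left out), floored at 1 and put on the log2 scale. Sample titles gave the group and the replicate number. All probe sets were fitted with limma 3.58.1 in R 4.3.3 (lmFit, eBayes with trend, two-sided, Benjamini-Hochberg over all, threshold 0.05); the code was tested on simulated data. The number of arrays, 3 per group, limits the precision, and the median SE of a difference was 0.63 among the 7606 probe sets above background on all arrays.

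Probe sets were named through the array annotation and locus tags of TAIR10.1 (GCF_000001735.4), 13436 with 1 gene. No coordinates are given, because no source used here names the build of the array. The 7 genes and the lists were chosen with earlier results of these data known. Named by rule, besides the 7, were the 2 family genes nearest below the limit and up to 2 genes with the smallest p per list. The most similar gene per member was also named by rule. The other family genes, PYK10 among them, F6′H1, CCR2, UGT72E2 and the marker genes were named after their values were seen.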

Additional observations from a re-analysis of the deposited data

How the results depend on the processing

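Other settings were quantile normalization, the values as deposited, eBayes without trend, the dimmest 40% left out, a floor at a log2 of 5, array weights, the replicate block and each array left out. In all of them 0 of 7 genes were called in either direction; over all probe sets the calls lower ranged from 0 to 46 and those higher were 0. The median of all probe sets moved from −0.10 as scaled to 0.0076 after quantile normalization and 0.090 as deposited. BGLU46 turned to 0.053 after quantile normalization, within its error, and the cause was not tested. Genes without overlap numbered 2 after quantile normalization (BGLU28 and BGLU42). With single arrays left out they numbered 2 to 4, the 4 without +DEX replicate 1 (BGLU15, BGLU24, BGLU28 and BGLU42). Fewer arrays make such a gap easier to reach. The share of all probe sets without overlap was not computed in these settings, so these counts are descriptions. BGLU42 was among the genes without overlap each time. With single arrays left out this was fixed in advance, since groups without overlap over all arrays cannot overlap over fewer. It was also fixed for eBayes without trend, the dim filter, array weights and the block, which keep the values, and for the floor, which lies below all values of BGLU42. Only quantile normalization and the values as deposited could have changed it. The median of the 7 ranged from −0.65 to −0.29 with single arrays left out. Deviations of same-numbered arrays correlated by 0.025, −0.0051 and 0.014, so the numbers were not taken to pair the samples. These correlations run over all probe sets, the dim ones included, and cannot exclude a pairing. With the replicate number as a block the median was −0.58 and 0 of 7 were called, against 33 of all probe sets. With the highest Bacillus control as background, 7 family genes were above it on all arrays in place of 8. Signal over background limits BGLU15, BGLU24 and BGLU31.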
